A study of Mus musculus with 3072 samples.

Results

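The mouse Schlafen genes lie together in a single cluster on chromosome 11, and the 7 members described here are Slfn1, Slfn2, Slfn3, Slfn4, Slfn5, Slfn8 and Slfn9, out of 29474 genes in the count table. They were taken by name as the rows of this family, and the family was chosen on measured values: Slfn2 reads were higher and Slfn9 reads lower in every comparison of an Apoe knockout group with its counterpart. The knockout values of all members below are therefore a description and were given no test. Reads of any kind were found for 5 of the 7 members, and 4 members (Slfn2, Slfn5, Slfn8 and Slfn9) had a mean of at least 1 RPM (reads of a gene divided by all reads of the group and scaled to 1000000) over the groups. Slfn1 and Slfn4 had 0 reads in all 1713 cells.

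Schlafen genes take their name from the German word for sleep, after the arrest of growth that early members of the family imposed on thymocytes and T cells in mice. Many members are induced by type I interferon. The short proteins, Slfn1 and Slfn2, hold little more than the core domain of the family, Slfn3 and Slfn4 are of intermediate length, and Slfn5, Slfn8 and Slfn9 carry an additional helicase-like part. In mouse T cells, Slfn2 is needed for the resting state and binds transfer RNAs, which it protects from cleavage. Microglia are the resident macrophages of the brain.

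The cells were CD11b-positive, DAPI-negative single cells sorted from the brains of male mice and read with a modified SmartSeq2 protocol, a full-length method without molecular identifiers. Cortex was taken from C57BL/6 mice (18 months), from C57BL/6-ApoeKO mice (18 months), from APP/PS1 mice, which carry the APPswe and PS1dE9 transgenes and form amyloid plaques (17 months), and from APP/PS1-ApoeKO mice (18 months). Hippocampus was taken from APP/PS1 mice (17 months) and APP/PS1-ApoeKO mice (18 months), and 2 further groups in the labels were not analysed here. They include APP/PS1 cortex at 18 months, labelled with sequencing lane mglia33, and the count table holds no cells of them. The knockout removes Apoe, which encodes apolipoprotein E, a carrier of lipids. In that order the 6 groups held 19.03, 18.27, 18.16, 9.87, 15.94 and 18.74% of the 1713 cells. The labels name no animals, so the cells of a group were summed to 1 sample, no difference was tested, and intervals given with ratios and shares are 95% intervals for counting error only. They are too narrow, since they hold no spread between animals or lanes. For ratios, copies of 1 molecule made by PCR were also counted as separate reads.

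The summed reads per group ranged from 74767907 in APP/PS1-ApoeKO cortex to 241536311 in C57BL/6 cortex. Apoe stood at 485, 13406 and 11919 RPM in C57BL/6 cortex, APP/PS1 cortex and APP/PS1 hippocampus and at 2.96, 0.0669 and 0.745 RPM in their knockout counterparts. Summed microglial markers (P2ry12, Tmem119, Cx3cr1, Csf1r and Sall1) lay between 25517 and 31053 RPM, and 1712 of the 1713 cells had reads of at least 2 of them. Both C57BL/6 groups shared their sequencing lanes (mglia37 and mglia38 in the labels). The APP/PS1 tissues shared mglia41 and mglia42, whereas the APP/PS1-ApoeKO cortex cells with a depth in the labels came from mglia34 alone (those of mglia33 have none and were kept out of the levels) and the hippocampus from mglia35 and mglia36. In the APP/PS1 background, genotype, lane and 1 month of age thus cannot be told apart among the groups used.

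On the GRCm38 assembly the members span chr11:82951349-83215154, in the order Slfn5, Slfn9, Slfn8, Slfn2, Slfn1, Slfn4 and Slfn3. Slfn9 (chr11:82978390-82991830) and Slfn8 (chr11:83002158-83020810) are neighbours on the minus strand, followed on the same strand by the transcribed pseudogene Slfn10-ps (chr11:83028130-83040042). Slfn2 (chr11:83065112-83070678) and Slfn5 (chr11:82951349-82964840) are on the plus strand. Slfn10-ps is not a member but is reported throughout, because its transcripts share stretches with those of Slfn8 and Slfn9.

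The sequences before the transcript start are shown for Slfn9, Slfn8 and Slfn2, the members with the most reads, together with the matching stretch of Slfn5. They are from RefSeq on GRCm38.p6, read 5′ to 3′ on the strand of the gene. Capitals mark matches to the core of the interferon-stimulated response element, searched on both strands as GAAA, any 2 bases and GAAA. The Slfn9, Slfn8 and Slfn2 stretches are the 100 bases that end at the base before the start.
Slfn9, chr11:82991831-82991930, minus strand: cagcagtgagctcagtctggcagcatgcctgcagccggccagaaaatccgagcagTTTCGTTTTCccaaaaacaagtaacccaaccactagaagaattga
Slfn8, chr11:83020811-83020910, minus strand: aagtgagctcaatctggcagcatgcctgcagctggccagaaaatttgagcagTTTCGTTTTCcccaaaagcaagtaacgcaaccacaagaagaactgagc
Slfn2, chr11:83065012-83065111, plus strand: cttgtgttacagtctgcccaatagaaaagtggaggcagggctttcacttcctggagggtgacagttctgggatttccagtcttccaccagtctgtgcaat
Slfn5, chr11:82951922-82951981, plus strand: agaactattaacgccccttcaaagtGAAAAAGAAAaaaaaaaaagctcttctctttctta

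The core was found before the RefSeq start used for Slfn9, Slfn8 and Slfn5, and 3.44% of the 32851 promoter windows in the table hold it. For Slfn5 that start lies inside the gene span. Slfn8 and Slfn9 hold the same 10 letters, starting 48 and 45 bases before their starts, and a second Slfn8 window in the table holds them as well. Over the 250 bases before the start, Slfn8 and Slfn9 were identical at 85.1% of aligned positions, against 64.8% for Slfn8 and Slfn2. No match to these letters was found in the windows of Slfn2, Slfn1, Slfn4 and Slfn3. A match to the PU.1 core GAGGAAG, which 13.6% of windows hold, was found 170 bases before the start of Slfn9, and the gamma-activated site TTCNNNGAA, held by 8.30% of windows, was found in no member's window.

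The transcripts of Slfn8, Slfn9 and Slfn10-ps are close copies in part, which bears on how their reads could be told apart. Of the 50-base words in GENCODE transcripts of Slfn9, 6.52% also occur in Slfn8 and 8.10% in Slfn10-ps, and 88.5% occur in no other gene. The same share was 85.4% for Slfn8, 80.3% for Slfn10-ps, 95.7% for Slfn2 and 96.6% for Slfn5. The sources used here do not give how reads that match several genes or overlapping genes were counted, nor whether strand was used, so the values of Slfn8, Slfn9 and Slfn10-ps are uncertain to that extent. Annotated antisense transcripts overlap Slfn2 and Slfn5. Shown are the longest stretch identical in Slfn8 and Slfn9 (coding in Slfn9, in exon 5 of 5 at chr11:82981231-82981369 on the minus strand) and the longest in Slfn9 and Slfn10-ps (coding in Slfn9 across exons 4 and 5, between 82981956 and 82982358).
Slfn8 and Slfn9: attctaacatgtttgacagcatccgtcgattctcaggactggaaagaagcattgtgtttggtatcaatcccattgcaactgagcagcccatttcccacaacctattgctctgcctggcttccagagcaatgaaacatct
Slfn9 and Slfn10-ps: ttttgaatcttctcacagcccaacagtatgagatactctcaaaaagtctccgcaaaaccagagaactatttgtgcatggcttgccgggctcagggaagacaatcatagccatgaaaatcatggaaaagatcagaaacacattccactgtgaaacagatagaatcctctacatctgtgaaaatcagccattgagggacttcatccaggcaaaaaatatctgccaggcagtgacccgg

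Slfn2, the short member tied to the resting state of T cells, was read more in every knockout group than in its counterpart. It stood at 13.2 RPM in C57BL/6 cortex, 13.99 in APP/PS1 cortex and 24.6 in APP/PS1 hippocampus, against 46.1 in C57BL/6-ApoeKO cortex, 31.6 in APP/PS1-ApoeKO cortex and 67.5 in APP/PS1-ApoeKO hippocampus. The 3 knockout sums were above the 3 sums with Apoe, and the share of all genes with such an order was not computed. By lane the groups overlapped: APP/PS1 hippocampus had 42.6 RPM in mglia41. C57BL/6-ApoeKO cortex had 26.4 RPM in mglia37 and APP/PS1-ApoeKO cortex 31.6 RPM in mglia34. The ratio of knockout to counterpart was 3.49 in C57BL/6 cortex (3.35 to 3.63), 2.26 in APP/PS1 cortex (2.13 to 2.39) and 2.74 in APP/PS1 hippocampus (2.64 to 2.85). Within the lanes that C57BL/6 and C57BL/6-ApoeKO shared, Slfn2 was 3.02 times higher in the knockout in mglia37 and 3.80 times higher in mglia38.

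A single lane set much of the hippocampal level with Apoe. APP/PS1 hippocampus had 42.6 RPM of Slfn2 in mglia41 and 7.27 RPM in mglia42, and 1 cell held 33.7% of its Slfn2 reads. Without mglia42 the log2 ratio in hippocampus was 0.66 in place of 1.46, and without mglia41 it was 3.22. With TMM library sizes the log2 ratio in APP/PS1 cortex was 0.92 in place of 1.17, below the 2-fold mark.

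**Figure D1:**
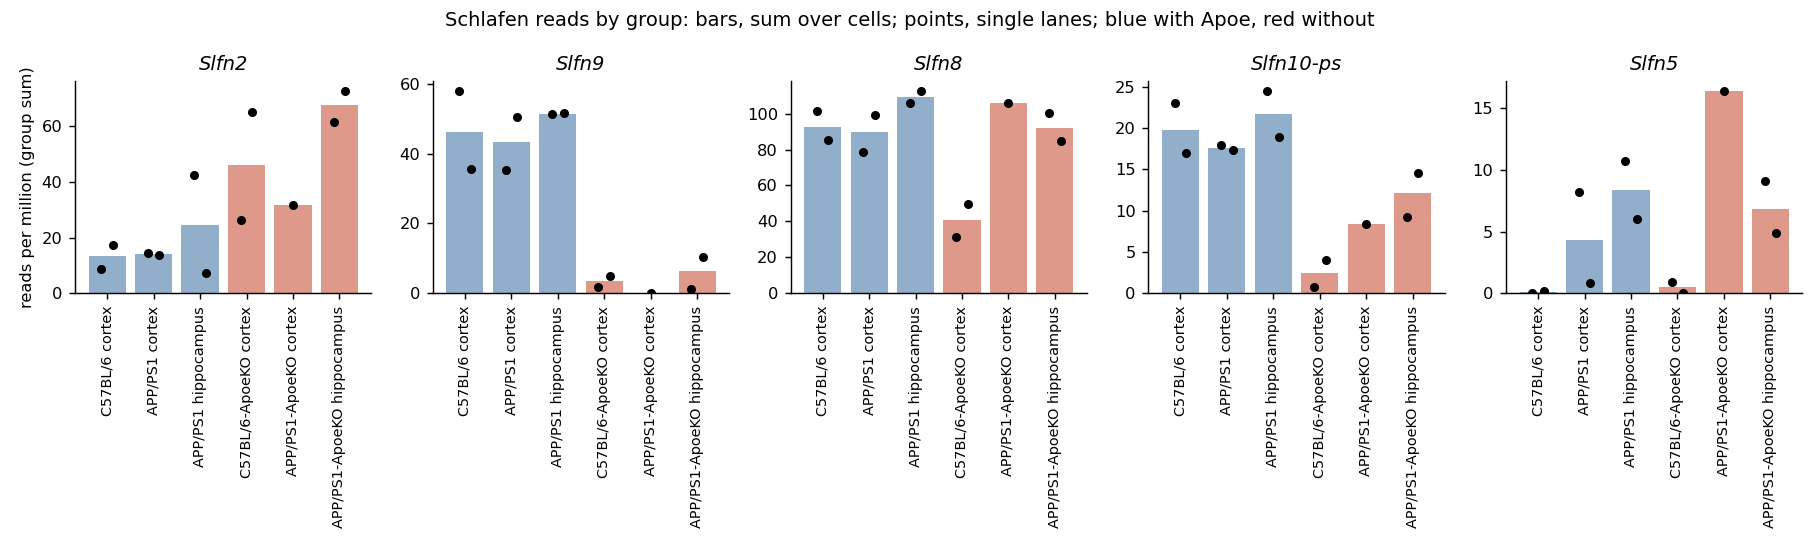
RPM of 4 members and the pseudogene Slfn10-ps in the 6 groups: bars are the sum over the cells of a group, points its single lanes, blue groups have Apoe and red groups lack it. Slfn2 bars are higher and Slfn9 bars lower in the 3 knockout groups, and the Slfn2 points of APP/PS1 hippocampus lie far apart, at 42.6 and 7.27 RPM.

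Slfn2 was read in few cells. It had reads in 20 C57BL/6 cells (6.13%, 95% Clopper-Pearson interval 3.79 to 9.32%), 22 APP/PS1 cortex cells (7.07%) and 13 APP/PS1 hippocampus cells (4.76%). In the knockout groups it had reads in 36 C57BL/6-ApoeKO cells (11.5%, 8.19 to 15.6%), 24 APP/PS1-ApoeKO cortex cells (14.2%) and 51 APP/PS1-ApoeKO hippocampus cells (15.9%). Depth differed between groups, with a median of 765704 reads per cell in C57BL/6 cortex at the upper end and 442917 in APP/PS1-ApoeKO hippocampus at the lower. With each cell thinned to 100000 reads the shares were 5.21, 6.11 and 4.41% with Apoe and 11.4, 12.4 and 15.05% without it, in the same order of groups. In cells with a read, the median level was 84.4, 82.9 and 288.7 RPM with Apoe and 257.7, 108.1 and 357.9 RPM without it. In hippocampus the knockout difference thus lay more in the share of cells than in the level per cell with a read.

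Slfn9, a long member with the helicase-like part, was read in about as many cells and at about the same level in each group with Apoe and in few knockout cells. It stood at 46.1 RPM in C57BL/6 cortex, 43.4 in APP/PS1 cortex and 51.5 in APP/PS1 hippocampus, against 3.45, 0.0401 and 6.25 RPM in C57BL/6-ApoeKO cortex, APP/PS1-ApoeKO cortex and APP/PS1-ApoeKO hippocampus. Each knockout value was below its counterpart, which the choice of the family required, and the APP/PS1-ApoeKO cortex value rests on 3 reads in 1 cell. Slfn9 was 13.4-fold lower in the knockout in C57BL/6 cortex (12.4 to 14.4), 8.23-fold lower in APP/PS1 hippocampus (7.70 to 8.82) and 1081-fold lower in APP/PS1 cortex (370 to 5243). With the APP/PS1-ApoeKO cortex cells that have no depth in the labels added, the log2 ratio in APP/PS1 cortex was -5.89 in place of -10.08. In hippocampus it was -3.04, and -2.29 without mglia35 or -5.37 without mglia36. Within lanes mglia37 and mglia38 it was 31.8-fold and 7.09-fold lower in C57BL/6-ApoeKO than in C57BL/6.

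Slfn9 reads were found in 30.98% of C57BL/6 cells (26.002 to 36.3%), 36.01% of APP/PS1 cortex cells and 34.8% of APP/PS1 hippocampus cells. They were found in 10 C57BL/6-ApoeKO cells (3.19%, 1.54 to 5.80%), 1 APP/PS1-ApoeKO cortex cell (0.592%) and 11 APP/PS1-ApoeKO hippocampus cells (3.43%). A single cell held 42.9% of the Slfn9 reads in C57BL/6-ApoeKO cortex and another 44.4% of those in APP/PS1-ApoeKO hippocampus. Without that cell the levels were 1.98 and 3.49 RPM.

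**Figure D2:**
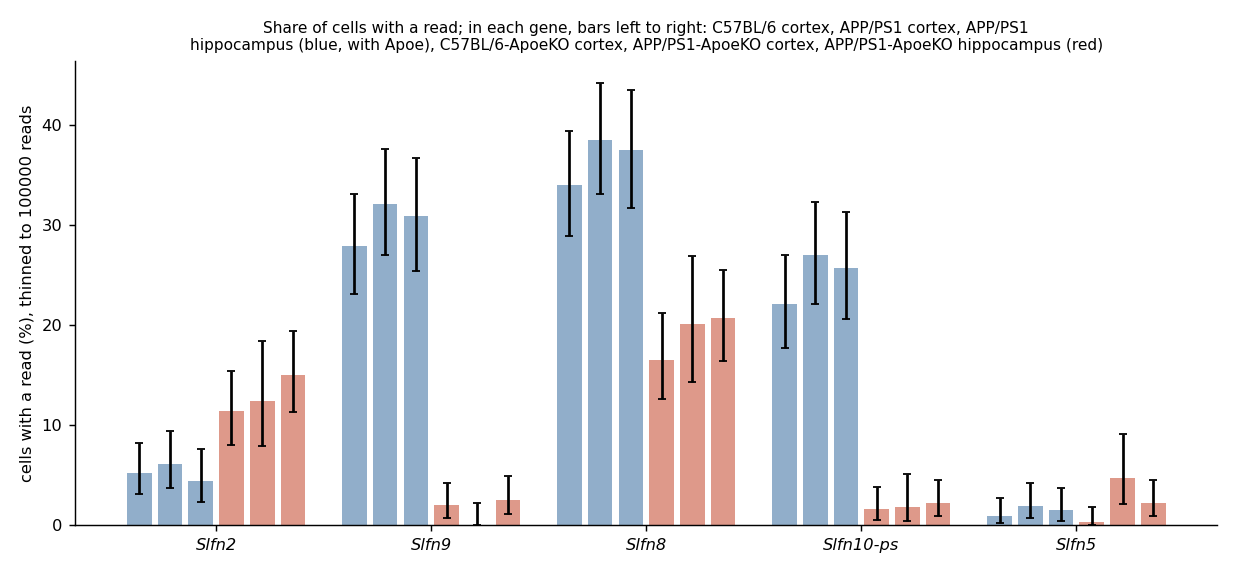
Share of cells with at least 1 read of each gene, in percent, after each cell was thinned to 100000 reads; bars are the 6 groups in the order given in the title and error bars are 95% Clopper-Pearson intervals. The knockout bars (red) are higher for Slfn2 and lower for Slfn9, Slfn8 and Slfn10-ps than the bars with Apoe (blue).

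Slfn8, the long member next to Slfn9, had the most reads of the family. It stood at 92.7 RPM in C57BL/6 cortex, 89.5 in APP/PS1 cortex and 109.3 in APP/PS1 hippocampus, against 40.6 in C57BL/6-ApoeKO cortex, 106.2 in APP/PS1-ApoeKO cortex and 91.9 in APP/PS1-ApoeKO hippocampus. Only C57BL/6-ApoeKO cortex stood apart, 2.28-fold below C57BL/6 cortex (2.23 to 2.34). In the APP/PS1 background Slfn8 was 1.19 times higher in the knockout in cortex and 1.19-fold lower in hippocampus. With TMM library sizes the log2 ratio in APP/PS1 cortex was -0.01 in place of 0.25. Without mglia37 the log2 ratio in C57BL/6 cortex was -0.78 in place of -1.19, less than 2-fold.

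The share of cells with Slfn8 reads was lower in every knockout group, unlike its level. It was 36.2% in C57BL/6 cortex, 40.8% in APP/PS1 cortex and 41.4% in APP/PS1 hippocampus. It was 16.9% in C57BL/6-ApoeKO cortex (53 cells), 21.9% in APP/PS1-ApoeKO cortex (37 cells) and 22.1% in APP/PS1-ApoeKO hippocampus (71 cells). Each knockout share was below that of its counterpart, also after thinning (34.05, 38.6 and 37.5% against 16.6, 20.1 and 20.7%). The median level in cells with a read was 171.6, 166.4 and 199.3 RPM with Apoe and 167.9, 336.4 and 277.6 RPM without it. In APP/PS1-ApoeKO tissues, fewer cells had Slfn8 reads and those that did had more of them.

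The pseudogene Slfn10-ps was lower in each knockout group. It stood at 19.8, 17.6 and 21.7 RPM in C57BL/6 cortex, APP/PS1 cortex and APP/PS1 hippocampus and at 2.41, 8.35 and 12.1 RPM in their knockout counterparts, which is 8.23-fold, 2.11-fold and 1.79-fold lower. Its reads were found in 92, 94 and 80 cells with Apoe and in 5, 5 and 11 knockout cells. In these knockout groups a single cell held 44.9, 54.5 and 32.1% of the Slfn10-ps reads. Without that cell the knockout levels were 1.34, 3.83 and 8.27 RPM. The reads of Slfn8, Slfn9 and Slfn10-ps were added up, so that it did not matter to which of them a counted read was assigned. The sum was 3.42-fold lower in the knockout in C57BL/6 cortex, 1.31-fold lower in APP/PS1 cortex and 1.65-fold lower in APP/PS1 hippocampus. Any reads left uncounted because they matched several genes would be missing from it too.

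Slfn8, Slfn9 and Slfn10-ps were read in the same cells where Apoe was present. In the 910 cells of these 3 groups, 90.9% of the cells with Slfn9 reads also had Slfn8 reads, against 12.96% of the cells without Slfn9 reads. Of the cells with Slfn10-ps reads, 98.9% had Slfn8 reads. In cells with both, the median ratio of Slfn9 to Slfn8 reads was 0.418 in C57BL/6 cortex, 0.432 in APP/PS1 cortex and 0.410 in APP/PS1 hippocampus. The median ratio of Slfn10-ps to Slfn8 reads was 0.196, 0.201 and 0.189. The ratios were thus close to each other in the 3 groups with Apoe.

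In the 803 knockout cells, few cells with Slfn8 reads had reads of the other genes. Of the knockout cells with Slfn8 reads, 12 had Slfn9 reads (7.45%) and 9 had Slfn10-ps reads (5.59%), against 78.2% and 73.5% of the cells with Slfn8 reads where Apoe was present. Of the 22 knockout cells with Slfn9 reads, 12 had Slfn8 reads (54.5%, against 19.1% of the cells without Slfn9 reads), and of the 21 with Slfn10-ps reads, 9 had them (42.9%, against 19.4%). A single one of the 21 with Slfn10-ps reads had Slfn9 reads. Most knockout cells with Slfn8 reads thus had no Slfn9 read.

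**Figure D3:**
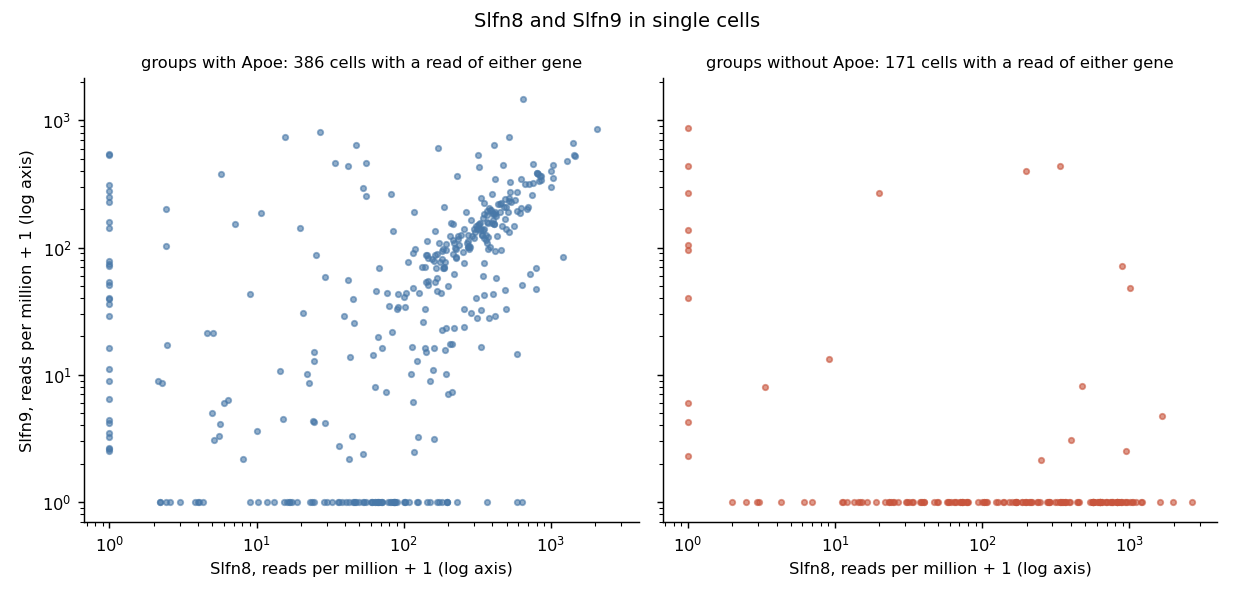
Slfn8 (horizontal) and Slfn9 (vertical) in single cells, in RPM plus 1 on log axes, for cells with a read of either gene; points at 1 have no read. With Apoe, most cells have reads of both genes, and without it most points lie on the bottom edge, with Slfn8 reads and no Slfn9 read.

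Slfn2 reads followed the other members less closely. Of the 55 cells with Slfn2 reads where Apoe was present, 35 had Slfn8 reads, and 35 knockout cells had reads of both. These shares of the cells with Slfn2 reads (63.6% and 31.5%) stood beside shares of cells with Slfn8 reads among cells without Slfn2 of 37.8% and 18.2%. Slfn2 and Slfn5 were read together in 4 cells with Apoe and 10 knockout cells.

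Slfn5, a long member that is interferon-inducible in mouse and human cells, was low and rested on single cells. It stood at 0.124 RPM in C57BL/6 cortex, 4.29 in APP/PS1 cortex, 8.33 in APP/PS1 hippocampus, 0.463 in C57BL/6-ApoeKO cortex, 16.4 in APP/PS1-ApoeKO cortex and 6.80 in APP/PS1-ApoeKO hippocampus, with reads in 4, 7, 5, 5, 11 and 8 cells. As group sums, all 4 groups with APP/PS1 were above both C57BL/6 groups. Single lanes overlapped, with 0.805 RPM for APP/PS1 cortex in mglia42 and 0.900 RPM for C57BL/6-ApoeKO cortex in mglia37. The ratio of APP/PS1 to C57BL/6 cortex was 34.5 with Apoe (23.98 to 51.5) and 35.4 without it (28.6 to 44.2). One cell held 27 of the 30 Slfn5 reads in C57BL/6 cortex and 1 cell 86 of the 92 in C57BL/6-ApoeKO cortex. In APP/PS1 cortex, mglia41 gave 8.18 RPM and mglia42 0.805 RPM. Leaving out 1 lane, the log2 ratio of APP/PS1 to C57BL/6 cortex lay between 2.70 (without mglia41) and 7.34 (without mglia38) with Apoe, in place of 5.11, and between 4.19 (without mglia38) and 8.69 (without mglia37) without it, in place of 5.15. The shares of cells with a read, 1.23 and 2.25% with Apoe, differed by less than their intervals (0.335 to 3.11% and 0.910 to 4.58%), and without Apoe they were 1.60% (0.521 to 3.69%) in C57BL/6-ApoeKO and 6.51% (3.29 to 11.3%) in APP/PS1-ApoeKO cortex.

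The knockout ratio of Slfn5 had no common direction. It was 3.82 in APP/PS1 cortex (3.49 to 4.18; log2 1.93, and 4.35 without mglia41 or 1.00 without mglia42), 3.73 in C57BL/6 cortex (2.45 to 5.83) and 1.22-fold lower in APP/PS1 hippocampus (1.13 to 1.33). With the APP/PS1-ApoeKO cortex cells that have no depth in the labels added, the log2 ratio in APP/PS1 cortex was 1.07 in place of 1.93. Those cells, all from mglia33, stood at 1.14 RPM, below the 4.29 RPM of APP/PS1 cortex. In C57BL/6 cortex the shared lanes went opposite ways, with the knockout 33.98 times higher in mglia37 and 5.31-fold lower in mglia38.

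Slfn3, known from the differentiation of the rodent intestinal epithelium, had 5, 7 and 13 reads in C57BL/6 cortex, APP/PS1 cortex and APP/PS1 hippocampus and 1 and 0 in C57BL/6-ApoeKO cortex and APP/PS1-ApoeKO cortex. It stood at 1.07 RPM in APP/PS1-ApoeKO hippocampus, where a single cell held 91.4% of its reads, so no level was compared. Slfn1, which restrains growth of mouse thymocytes, and Slfn4, known from mouse myeloid cells, had no read in any of the 1713 cells, which allows a share of cells with a read of up to 0.175%. Slfnl1, a relative on chromosome 4, also had 0 reads.

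Compared per kilobase of exon (RPKM), the order of the members differed between genotypes. In C57BL/6 cortex Slfn8 stood at 22.7, Slfn2 at 7.94, Slfn9 at 7.73, Slfn10-ps at 5.48 and Slfn5 at 0.0196 RPKM, so that Slfn2 and Slfn9 were close. In C57BL/6-ApoeKO cortex Slfn2 was first at 27.7 RPKM, ahead of Slfn8 at 9.92, Slfn10-ps at 0.666 and Slfn9 at 0.579. Slfn2 also led in APP/PS1-ApoeKO hippocampus (40.6 against 22.5 RPKM of Slfn8) but not in APP/PS1-ApoeKO cortex (18.97 against 25.9 RPKM).

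The numbers of members at least 2-fold apart were read against all 12703 genes with a mean of at least 1 RPM, 4 of which are members. The knockout in APP/PS1 cortex had 2 members higher (Slfn2 and Slfn5) and 1 lower (Slfn9), where 18.3% of all genes were at least 2-fold higher and 11.7% lower. The knockout in APP/PS1 hippocampus had 1 higher (Slfn2) and 1 lower (Slfn9), beside 14.4% and 10% of all genes. The knockout in C57BL/6 cortex had 2 higher (Slfn2 and Slfn5) and 2 lower (Slfn8 and Slfn9), beside 12.1% and 9.64%. Nothing is read from these counts, since the family was chosen on the same comparisons. The value nearest to the 2-fold mark from above was Slfn2 in APP/PS1 hippocampus against cortex without Apoe, at 2.14, and the nearest from below was Slfn5 in APP/PS1 hippocampus against cortex, at 1.94.

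The comparison of APP/PS1 with C57BL/6 cortex, which the choice of the family did not use, gave ratios near 1 for Slfn2, Slfn8 and Slfn9 where Apoe was present. Slfn2 stood at 13.99 against 13.2 RPM, a ratio of 1.06 (1.00 to 1.11), Slfn9 at 0.941 of its C57BL/6 level and Slfn8 at 0.966. The C57BL/6 lanes of Slfn2 lay apart, at 8.75 RPM in mglia37 and 17.2 RPM in mglia38. Its log2 ratio of 0.08 became -0.29 without mglia37 and reached 0.68 at the upper end of the alternatives. Slfn5 was the 1 member at least 2-fold higher and 0 were lower, beside 9.86% and 12.8% of all genes. Without Apoe, 2 members were at least 2-fold higher in APP/PS1-ApoeKO than in C57BL/6-ApoeKO cortex (Slfn5, and Slfn8 by 2.62 times) and 1 lower (Slfn9, on 3 reads), beside 12.5% and 12.1% of all genes. Slfn2 was 1.46-fold lower there (1.39 to 1.53), but its direction rested on 1 lane: the log2 ratio of -0.55 became 0.26 without mglia38, where C57BL/6-ApoeKO had 65.1 RPM, and -1.04 without mglia37, where it had 26.4 RPM. With the APP/PS1-ApoeKO cortex cells that have no depth in the labels, the log2 ratio of Slfn9 was -2.24 in place of -6.43. These comparisons share groups with the knockout comparisons, both pairs differ in lane, and the pair with Apoe also by 1 month of age.

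Between tissues, 0 members differed at least 2-fold in APP/PS1 mice, beside 9.52% of all genes higher and 10.3% lower in hippocampus. Slfn9 was 1.19 times, Slfn8 1.22 times, Slfn2 1.76 times and Slfn5 1.94 times higher in hippocampus. In mglia41 Slfn2 was at 14.3 RPM in cortex and 42.6 in hippocampus, and in mglia42 at 13.7 and 7.27 RPM, so its direction differed between the shared lanes. In APP/PS1-ApoeKO mice, 2 members were at least 2-fold higher in hippocampus (Slfn2 by 2.14 times, Slfn9 by 155.9 times against 3 reads) and 1 lower (Slfn5, 2.41-fold), beside 11.2% and 13.3% of all genes. With the cortex cells that have no depth in the labels added, the log2 ratio of Slfn9 was 3.09 in place of 7.28, that of Slfn2 0.81 in place of 1.10 and that of Slfn5 -0.41 in place of -1.27, the last 2 of them below 2-fold. Without mglia36 the log2 ratio of Slfn9 was 4.96.

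**Figure D4:**
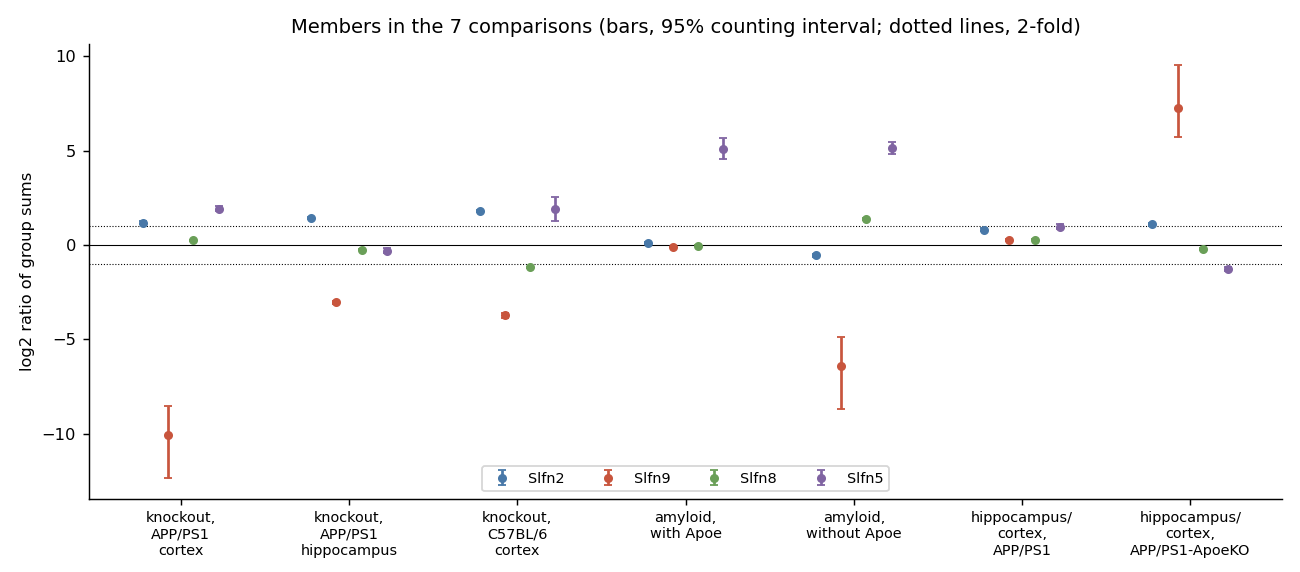
Log2 ratio of the RPM of 4 members in each of the 7 comparisons; points are ratios of group sums, bars 95% counting intervals, and dotted lines mark 2-fold. Slfn2 lies above and Slfn9 below 2-fold in the 3 knockout comparisons, and Slfn5 lies near 5.11 and 5.15 in both comparisons of APP/PS1 with C57BL/6 cortex.

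Since Schlafen genes are known as interferon-induced, a list of 20 interferon-stimulated genes was set beside them. Of these, 13 were at least 2-fold higher and 1 lower in the knockout in C57BL/6 cortex, with a median log2 ratio of 1.88 beside 0.05 over all genes. In APP/PS1 cortex 6 were higher and 2 lower (median 0.60 beside 0.21), and in APP/PS1 hippocampus 6 were higher and 2 lower (median 0.42 beside 0.08). Among the members of the list with the most reads, Bst2, which tethers viruses to the cell surface, stood at 7.20, 15.3 and 13.7 RPM with Apoe and 88.5, 93.8 and 86.8 RPM without it. Rtp4 stood at 12.3, 35.9 and 33.3 against 50.1, 100.3 and 94.97 RPM. Stat2, which carries the interferon signal to the nucleus, stood at 30.9, 28.9 and 38.1 against 36.8, 77.6 and 39.9 RPM, and Trim30a at 105.9, 130.4 and 118.8 against 123.9, 173.7 and 153.1 RPM.

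Of 11 genes of interferon signalling, 0 were at least 2-fold higher in any knockout comparison and 1 was lower, Socs1 in APP/PS1 cortex (4.93 against 2.38 RPM), named after its values were seen. The shares of all genes past 2-fold are those given for the interferon-stimulated list. The receptor subunit Ifnar2 stood at 311.7, 293.5 and 302.9 RPM with Apoe and 256.8, 276.4 and 263.02 RPM without it.

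Slfn2 was read more often in cells with reads of many interferon-stimulated genes. After thinning, 10.9% of 1705 cells had reads of at least 4 of the 20 genes, and Slfn2 was read in 36.02% of them (29.1 to 43.4%) and in 5.60% of the other 1519 cells (4.49 to 6.87%). The corresponding shares were 10.8 and 0.592% for Slfn5, 45.7 and 26.3% for Slfn8 and 23.1 and 16.2% for Slfn9. These shares pool all 6 groups, and within groups Slfn9 differed more. It was read in 57.1 against 26.6% in C57BL/6 cortex, 46.7 against 30.6% in APP/PS1 cortex and 46.4 against 29.1% in APP/PS1 hippocampus. In their knockout counterparts it was read in 8.82 against 1.09%, 0 against 0% and 9.62 against 1.12%. The bound of 4 genes marks a range and not a cell type: in each group, 12 to 52 cells had reads of 3 or 4 of the genes. Cells with at least 4 made up 4.29, 9.65 and 10.3% of C57BL/6 cortex, APP/PS1 cortex and APP/PS1 hippocampus and 11.04, 16.6 and 16.3% of their knockout counterparts. The part of the interferon-stimulated genes in the knockout ratios was not tested.

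Within either range, the share of cells with Slfn2 reads was higher in each knockout group than in its counterpart, with counting intervals that mostly overlapped. Among cells with 0 to 3 interferon-stimulated genes it was read in 3.85, 4.27 and 2.46% with Apoe and 6.93, 7.09 and 9.74% without it. Among cells with at least 4 it was read in 35.7, 23.3 and 21.4% with Apoe and 47.1, 39.3 and 42.3% without it, with 14 to 52 cells per group. There the intervals overlapped in each pair, as in C57BL/6 cortex (12.8 to 64.9% against 29.8 to 64.9%). With 0 to 3 they overlapped in both cortex pairs. In the cells with 0 to 3, the log2 ratio of Slfn2 was 0.93 in C57BL/6 cortex, 1.11 in APP/PS1 cortex and 4.602 in APP/PS1 hippocampus. In that range, 6 APP/PS1 hippocampus cells had a Slfn2 read after thinning. Slfn9 in the cells with 0 to 3 was read in 26.6, 30.6 and 29.1% with Apoe and 1.09, 0 and 1.12% without it.

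A list of 14 genes of quiescence, cycling and transfer RNA cleavage, set beside Slfn2 for its role in T cells, held 12 with a mean of at least 1 RPM. Of these, 0 were at least 2-fold higher and 3 lower in the knockout in APP/PS1 cortex, 0 and 3 in APP/PS1 hippocampus, and 1 and 1 in C57BL/6 cortex. The median log2 ratios were -0.08, -0.50 and -0.02, beside 0.21, 0.08 and 0.05 over all genes. Ang, a ribonuclease that cleaves transfer RNAs, stood at 99.9, 125.7 and 130.3 RPM with Apoe and 134.8, 129.6 and 116.8 RPM without it, and its inhibitor Rnh1 at 184.05, 146.8 and 213.9 against 187.7, 177.8 and 195.96 RPM.

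Markers of other blood cells known for Schlafen expression were set beside the members. NK cell markers had 0 reads, neutrophil markers summed to between 0 and 0.596 RPM over the groups, and T cell markers to between 34.7 and 83.7 RPM, nearly all of it Il7r, with Trbc2 and Trac at 0. B cell markers summed to between 419 and 667 RPM, led by Ighm, with Ms4a1 at 0. Of the cells with Slfn2 reads, 0 had reads of at least 2 T cell markers, 100% had reads of at least 2 microglial markers, and 9 (5.42%) had reads of at least 2 B cell markers, against 4.85% of the cells without Slfn2 reads. Monocyte markers summed to between 3.21 and 28.3 RPM over the groups, and to 9.08 RPM in cells with and 11.4 RPM in cells without Slfn2 reads. Astrocyte markers summed to 40.4 and 19.6 RPM and endothelial or mural markers to 22.1 and 12.004 RPM in the same order, and their part in the Slfn2 values was not tested. The median number of genes per cell was 2261 with and 2167 without Slfn2 reads.

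The neighbours of the cluster were set beside the members. Over all 12703 genes, 3.69% were at least 2-fold higher in all 3 knockout comparisons or lower in all 3. Of the 18 other genes within 500 kb of the cluster with at least 1 RPM, 2 were higher in all 3 and 1 was lower. Mmp28, a secreted metalloproteinase, stood at 0.489, 0 and 0 RPM with Apoe and 7.38, 12.1 and 5.81 RPM without it, and the chemokine Ccl9 at 42.8, 45.5 and 40.8 against 124.3, 152.8 and 198.2 RPM. The non-coding AA465934, named after its values were seen, stood at 8.08, 10.4 and 8.56 against 1.31, 0.227 and 1.13 RPM. On either side of the cluster, Rffl (62.6, 53.1 and 54.8 against 73.8, 64.8 and 75.1 RPM) and Ap2b1 (101.9, 74.2 and 76.7 against 83.03, 77.2 and 76.2 RPM) were less than 2-fold apart in each knockout comparison.

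**Figure D5:**
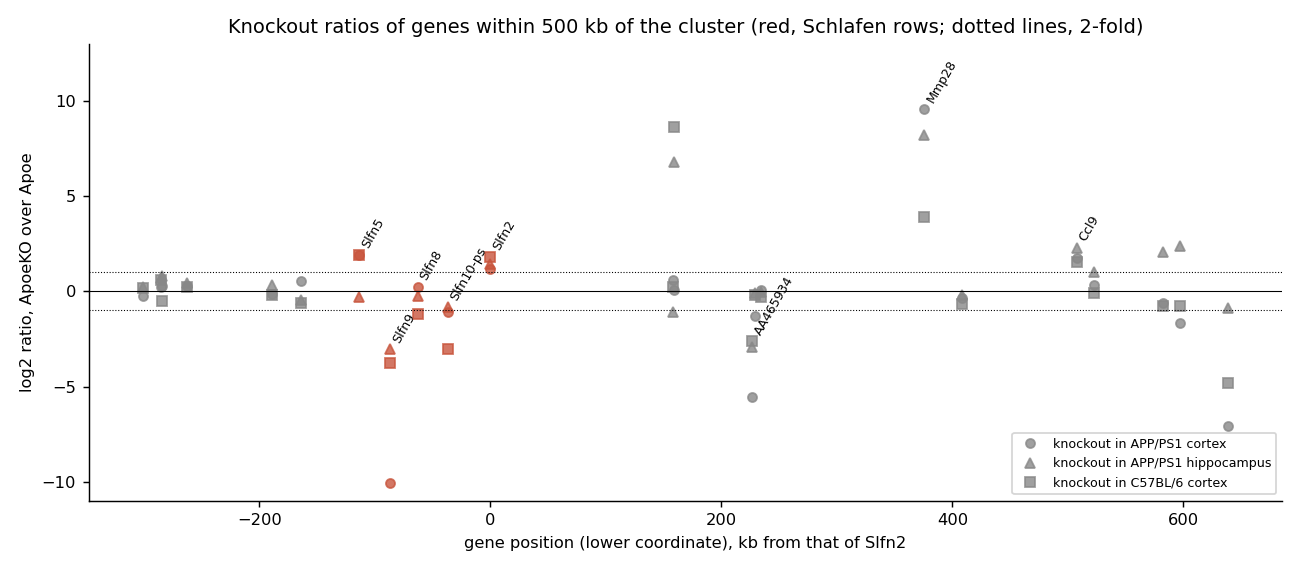
Log2 ratio of knockout to counterpart (vertical) against the distance of a gene's lower coordinate from that of Slfn2 in kb (horizontal) for genes with a mean of at least 1 RPM within 500 kb of the cluster; marker shapes are the 3 knockout comparisons, red points Schlafen rows, dotted lines 2-fold, and a group without reads was set to 3 reads. Slfn9 and Slfn2 lie on opposite sides of 0 in each comparison.

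Over the 6 groups, the genes whose log2 level followed a member most closely were found among the 7968 genes whose mean reached 10 RPM and that were read in 5% of cells or more. For Slfn2 they were Cask (Pearson r = 0.989), Slc2a8 (0.987) and Gna13 (0.984), for Slfn9 Arpc1a (0.992), Tpd52l2 (0.992) and Pvrig (0.991), for Slfn8 Cul1 (0.997), Gpank1 (0.989) and Nacc2 (0.988), and for Slfn5 Tbc1d8 (0.990), Gpr146 (0.989) and Invs (0.989). These are the top of a long list over 6 points that share lanes and genotypes, and 10 to 25 genes reached 0.95 for a member. The likeness is one of shape and not of size: Cask ran from 86.6 to 122.9 RPM where Slfn2 ran from 13.2 to 67.5, and Gpank1 from 2.99 to 15.5 RPM where Slfn8 ran from 40.6 to 109.3.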

How the data were processed

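Whole-number read counts per gene and cell were used as the authors deposited them. The submitters' processing notes name the build mm10 and the tools Seurat 2.3.1, featureCounts 1.5.1 and STAR 2.5.2, without saying what each did. Of 1878 cells with counts, the 1713 for which the labels give a depth were used, and 165 APP/PS1-ApoeKO cortex cells without one entered an alternative. No cells were filtered or called as doublets. Counts were summed per group and divided by the total (RPM); RPKM used the exon length in GENCODE M21. Ratios had exact conditional intervals and shares Clopper-Pearson intervals. A group without reads was set to 3 reads, and calls needed at least 2-fold and a mean of at least 1 RPM (12703 of 29474 genes). No p-value was computed, since a group is 1 sample. Ratio code was tested on simulated data. The members, gene lists and comparisons were chosen with earlier results of these data known. Named were the members, other Schlafen rows, protein-coding neighbours within 500 kb, the 3 most similar genes per member, and the list genes with the most reads, unless said otherwise. Alternatives were TMM (edgeR 4.0.16), median-of-ratios scaling, other totals, mean over cells, thinning to 100000 or 50000 reads, cells or lanes left out, other filters and 0.5 RPM added. Python 3.11.15 and scipy 1.17.1 were used. A few marker genes are not reported here and were left out of the marker sums.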

Additional observations from a re-analysis of the deposited data

Results flagged for a closer look

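Values of Slfn5 and Slfn8 lay on opposite sides of 1 in like comparisons, with counting intervals apart from 1; the differences between these comparisons were not tested. The knockout ratio of Slfn5 was 3.82 in APP/PS1 cortex and 0.816 in APP/PS1 hippocampus. Its ratio of hippocampus to cortex was 1.94 in APP/PS1 and 0.415 in APP/PS1-ApoeKO. Each of these sums rests on 5 to 11 cells with Slfn5 reads. The knockout ratio of Slfn8 was 1.19 in APP/PS1 cortex and 0.438 in C57BL/6 cortex. Its ratio of APP/PS1 to C57BL/6 cortex was 0.966 with Apoe and 2.62 without it.

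The APP/PS1-ApoeKO cortex cells without a depth in the labels (lane mglia33, 70022622 reads) held reads of members that were absent or scarce elsewhere. Slfn1 stood at 2.53 RPM, all of it in 1 cell, against 0 reads in the 1713 cells used. Slfn3 stood at 3.08 RPM, from 2 cells.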

How the results depend on the processing

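The log2 ratios of the 4 members with at least 1 RPM were recomputed under the alternatives, which gave 280 values; 38.9% of them lay within the counting interval of the reported value, 1 reversed a value past 2-fold and the others left the interval; the 48 shares of cells at other depths stayed within their intervals. Slfn9 stayed at least 2-fold lower in the 3 knockout comparisons with other scaling, totals, depths, filters or lanes, with log2 ratios of -2.29 or below. Slfn2 stayed higher in all 3, below 2-fold in APP/PS1 cortex with TMM (0.92) and median-of-ratios scaling (0.96) and in APP/PS1 hippocampus without mglia42 (0.66). Leaving out 1 lane, the number of members at least 2-fold apart lay between 1 and 2 for the knockout in APP/PS1 hippocampus (reported: 2), at 1 for hippocampus against cortex in APP/PS1 (reported: 0) and between 1 and 3 in APP/PS1-ApoeKO (reported: 3). It was 1 for hippocampus against cortex in APP/PS1 with no filter on low values, through Slfn3, and 1 in APP/PS1-ApoeKO with the cells that have no depth in the labels. Below 2-fold, Slfn2 changed direction in APP/PS1 against C57BL/6 cortex without Apoe (0.26 without mglia38, reported: -0.55) and in hippocampus against cortex in APP/PS1 (-0.92 without mglia41, reported: 0.82). It also did so in APP/PS1 against C57BL/6 cortex with Apoe (-0.29 without mglia37, reported: 0.08). The reversed value past 2-fold was Slfn5 in the knockout in C57BL/6 cortex, -2.41 without mglia37 and 5.09 without mglia38. With the reads of Slfn8, Slfn9 and Slfn10-ps summed, an alternative chosen after seeing the data, the log2 ratio was 1.30 for APP/PS1 against C57BL/6 cortex without Apoe and -0.055 for hippocampus against cortex in APP/PS1-ApoeKO, both against the direction of Slfn9 alone. For the knockout, the summed log2 ratio was -0.39 in APP/PS1 cortex and -0.73 in APP/PS1 hippocampus, both less than 2-fold, and -1.77 in C57BL/6 cortex. The cause of these changes was not tested. No paired analysis was possible because the labels name no animals and give no replicate numbers that tie groups together; ratios within the lanes that groups shared stand beside the results. With 1 sample a group, the spread between animals is unknown.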

Other observations

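In the APP/PS1-ApoeKO cortex cells without a depth in the labels, Slfn2 stood at 45.8 RPM with reads in 31 cells (18.8%), Slfn8 at 74.99 RPM in 45 cells (27.3%), Slfn9 at 1.47 RPM in 7 cells (4.24%), Slfn10-ps at 7.75 RPM in 4 cells and Slfn5 at 1.14 RPM in 3 cells. These cells entered none of the levels above. They are of the same genotype, tissue and age as the APP/PS1-ApoeKO cortex cells used, in which Slfn2 stood at 31.6, Slfn8 at 106.2, Slfn9 at 0.0401, Slfn10-ps at 8.35 and Slfn5 at 16.4 RPM. Both lanes had Slfn9 below every group sum with Apoe and Slfn2 above it. Against single lanes this did not hold for Slfn2: APP/PS1 hippocampus had 42.6 RPM in mglia41, above the 31.6 RPM of mglia34.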
